A study of Mus musculus with 29 samples.

Results

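Whole blood of irradiated mice labelled Die was compared with whole blood of irradiated mice labelled Live. All 19 animals were male mice of the genotype given as LJ, had received 11.35 Gy to the upper body and were bled at day 120, so dose, time and sex were shared and the outcome label was the difference. The Die group held 9 animals and the Live group 10, chosen by their labels, out of 29 animals in the series. The other 10 animals were sham-treated (0 Gy), carry the label Live for outcome as well, and serve only as a reference for direction. The series was set up to find blood markers of survival in delayed lung injury. The labels give no time or cause of death, no age and no batch, and the bleeding site (cheek or tail vein) is not given per animal. Of 50384 gene symbols, the 11608 with a mean normalised value of at least 50 over the 19 irradiated libraries were tested.

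Irradiation of the chest is known to cause pneumonitis and later fibrosis of the lung after a delay of weeks to months, and blood leukocytes, among them monocytes and neutrophils, are recruited to the injured tissue. Whole blood carries RNA of leukocytes, platelets and immature red cells, so its profile follows both how many cells of each type circulate and what each cell transcribes. In bulk blood, fewer cells of a type and less RNA per cell cannot be told apart.

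The values were normalised by the authors, and the number of reads behind them is unknown. The tissue label was checked by markers: hemoglobin genes took 1.90% to 7.44% of the values in every library despite globin removal, and of the 18 lung epithelium and alveolar macrophage markers 16 had a mean under 50, with a highest mean of 18.5 among those. Libraries differed in how many tested genes were listed at 0. Die replicate 2 had 773 such genes and Die replicate 14 had 508, against 20 to 225 in the other irradiated libraries. The median SD of a tested gene between animals was 0.65 (log2) in Die, 0.53 in Live and 0.51 in Die without these 2 libraries. Counts and medians without these 2 libraries are given for the larger gene groups, and single genes that moved by over 1.5 times without them are gathered after the gene lists.

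No gene passed the test. With limma, 0 of 11608 genes were higher and 0 were lower in Die at an adjusted p under 0.05 (0% of the genes tested in each direction), and the smallest adjusted p was 0.330. At an unadjusted p under 0.05, 642 genes (5.53%) were higher and 834 genes (7.18%) were lower, so that 12.7% lay past that line in either direction, 43.5% of them higher. The split turned to 54.8% higher when libraries were scaled to their totals without 7S, hemoglobin and mitochondrial transcripts, and to 62.7% higher with the 7S share of the library as a covariate. The median log2 change over all genes was -0.048. The log2 changes and p given for single genes below therefore describe genes that did not pass, each with an adjusted p of at least 0.330, and "higher" or "lower" refers to the unadjusted p where it is named.

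The animals of both groups were fully separated for 2 genes (0.0172% of the genes tested), both with every Die value above every Live value, and for 0 genes in the other direction. Msl2 encodes a ubiquitin ligase of the MSL histone acetyltransferase complex and lies on chromosome 9 from 101074101 to 101104800. Its normalised value ran from 1277 to 1637 in Live with a median of 1495, and from 1690 to 2330 in Die with a median of 1972. The sham median was 1853, so the Live animals were the low group. The log2 change was 0.42 ± 0.098 (SE, limma, p = 0.000273, adjusted p = 0.330).

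P4ha1, the catalytic subunit of the prolyl hydroxylase that matures collagen and a target of hypoxia signalling, was the other separated gene (chromosome 10, 59323296 to 59373304). It lay between 177 and 394 in Live with a median of 339, and between 406 and 615 in Die with a median of 434. The gap between the groups was small, since the highest Live value of 394 was close to the lowest Die value of 406. Live replicate 7, at 177, stood below the other Live animals. On the log2 scale P4ha1 differed by 0.55 ± 0.16 (SE, limma, p = 0.00303, adjusted p = 0.330), and the sham median of 446 was near that of Die.

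**Figure D1:**
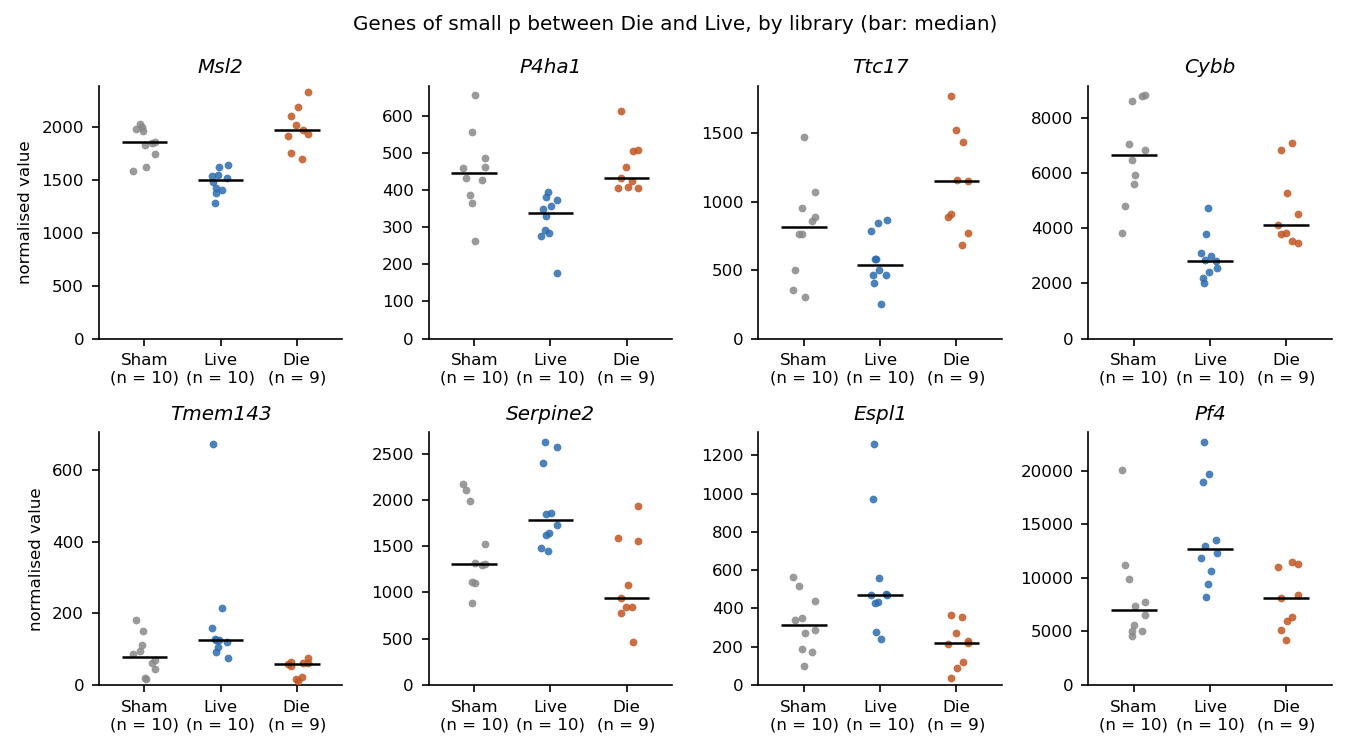
Normalised value of 8 genes in each library of the sham, Live and Die groups, on linear axes from 0, with the group median as a bar. In the upper row (Msl2, P4ha1, Ttc17, Cybb) the Die median lies above the Live median, and in the lower row (Tmem143, Serpine2, Espl1, Pf4) below it, while 0 genes passed the adjusted threshold.

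Ranked by p, the first 12 annotated genes with a higher value in Die were Ttc17, Msl2, Arhgap26, Atr, Fgd4, Ubxn4, Parp8, Nabp1, Slk, Pdzd8, Cybb and Olfr635. Their log2 changes lay between 0.42 and 1.02, and in each of them 9 of 9 Die animals were above the Live median. Ttc17, a tetratricopeptide repeat protein linked to actin assembly (chromosome 2, 94300767 to 94406689), ran from 249 to 865 in Live with a median of 539, and from 686 to 1769 in Die with a median of 1155. The upper Live animals reached into the Die range, and 7 of 9 Die animals were above all Live animals. Ttc17 had a log2 change of 1.02 ± 0.23 (SE, limma, p = 0.000192, adjusted p = 0.330).

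A pair of the higher genes belong to the response to damaged or single-stranded DNA. Atr, the kinase that senses stalled replication forks (chromosome 9, 95857597 to 95951781), ran from 377 to 761 in Live with a median of 487 and from 637 to 1382 in Die with a median of 834. Its groups overlapped, with 5 of 9 Die animals above all Live animals, and its log2 change was 0.76 ± 0.18 (SE, limma, p = 0.000380, adjusted p = 0.330). Nabp1, a single-stranded DNA binding protein of the SOSS complex (chromosome 1, 51465862 to 51478425), had a median of 869 in Live and 1360 in Die and a log2 change of 0.79. These genes did not stand for their list. Of 28 tested genes of DNA damage signalling and repair, 15 had a positive log2 change, the median was 0.020, and 2 were higher and 2 lower at unadjusted p under 0.05, where 5.53% and 7.18% of all genes were. The median was -0.025 with the 7S covariate, with 11 positive, and -0.026 with the length index. Atm, the kinase that responds to double-strand breaks, had a log2 change of 0.68, while H2ax (-1.05) and Brca2 (-0.70) had negative ones.

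Others act on the cytoskeleton and on membranes. Fgd4, an exchange factor for the small GTPase Cdc42 (chromosome 16, 16416917 to 16600549), had a median of 1320 in Live and 2280 in Die and a log2 change of 0.77. Arhgap26, a GTPase-activating protein (0.94), Slk, a Ste20-like kinase of the cytoskeleton (0.66), Parp8, a member of the ADP-ribosyltransferase family (0.67), Ubxn4, an endoplasmic reticulum protein of protein degradation (0.86), and Pdzd8, a lipid transfer protein of the endoplasmic reticulum (0.45), had positive log2 changes. In Arhgap26, Slk, Parp8, Ubxn4 and Pdzd8 the groups overlapped, and between 3 and 7 of 9 Die animals were above all Live animals.

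Cybb, which encodes the membrane core of the oxidase that phagocytes use against microbes (chromosome X, 9435252 to 9487771), was the named gene that also marks monocytes. It ran from 2021 to 4751 in Live with a median of 2834, and from 3483 to 7114 in Die with a median of 4119. Its sham median was 6657, so Die lay between Live and sham, and 3 of 9 Die animals were above all Live animals. The log2 change was 0.67 ± 0.17 (SE, limma, p = 0.000776, adjusted p = 0.330) and became 0.33 with the 7S share as a covariate.

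Ranked by p, the first 12 annotated genes with a lower value in Die were Tmem143, Tmem246, Serpine2, Espl1, Agap3, Hist1h2ao, Abcb10, Csrp1, Pf4, Cdc42ep5, Insr and Cd151. Their log2 changes lay between -1.83 and -0.53, with 8 or 9 of 9 Die animals below the Live median. Tmem143, a membrane protein gene (chromosome 7, 45896941 to 45917413), ran from 75.2 to 672 in Live with a median of 125, and from 12.2 to 76.7 in Die with a median of 57.5. Live replicate 18 held the value of 672, and 8 of 9 Die animals were below all Live animals. Tmem143 had a log2 change of -1.83 ± 0.44 (SE, limma, p = 0.000362, adjusted p = 0.330).

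Several of the lower genes are known from platelets and clotting. Serpine2, protease nexin 1, a thrombin inhibitor (chromosome 1, 79794197 to 79861180), ran from 1452 to 2621 in Live with a median of 1787, and from 465 to 1935 in Die with a median of 941. In it 6 of 9 Die animals were below all Live animals, and the other 3 lay within the Live range. Serpine2 had a log2 change of -0.87 ± 0.22 (SE, limma, p = 0.000552, adjusted p = 0.330). Pf4, the platelet factor 4 chemokine of platelet granules (chromosome 5, 90772435 to 90773383), ran from 8227 to 22654 in Live with a median of 12670, and from 4214 to 11449 in Die with a median of 8098. The groups overlapped in Pf4 and the sham median was 6957, below that of Live. Its log2 change was -0.82 ± 0.22 (SE, limma, p = 0.00121, adjusted p = 0.330) and became -0.33 with the 7S share as a covariate. Cd151, a tetraspanin of platelets and other cells (chromosome 7, 141467392 to 141471473), had a log2 change of -0.89, and -0.32 with that covariate.

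The remaining lower genes serve cell division, red cell metabolism and signalling. Espl1, separase, which cleaves cohesin when chromosomes part (chromosome 15, 102296266 to 102324357), ran from 238 to 1257 in Live with a median of 469, and from 36.2 to 365 in Die with a median of 217. Its log2 change was -1.50 ± 0.39 (SE, limma, p = 0.000802, adjusted p = 0.330), and 6 of 9 Die animals were below all Live animals. Abcb10, a mitochondrial inner membrane transporter needed in erythroid cells (chromosome 8, 123952459 to 123983122), had a median of 1151 in Live and 737 in Die and a log2 change of -0.83. Insr, the insulin receptor, had a log2 change of -0.53. The Cdc42 effector gene Cdc42ep5 (-1.27), the Arf regulator gene Agap3 (-1.02), the LIM domain gene Csrp1 (-0.79), the histone H2A gene Hist1h2ao (-1.06) and the membrane protein gene Tmem246 (-1.56) had negative log2 changes.

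Group means were then set against sham. The Live mean was farther from sham than the Die mean in 47.0% of all 11608 genes tested, in 45.4% of those with a positive and 48.3% of those with a negative log2 change. In the 12 higher genes, which had been picked by their p between Die and Live, the Live mean was farther from the sham mean than the Die mean in 8, with a median difference from sham of -0.44 (log2) in Live and 0.24 in Die. In the 12 lower genes this held for 10, with a median difference of 0.79 in Live and -0.27 in Die. The mean value of Pf4 was 8317 in sham, 14032 in Live and 7996 in Die. Olfr635, an olfactory receptor gene, was an exception, with means of 191 in sham, 175 in Live and 370 in Die. Both irradiated groups share the sham animals, so these directions are given as values without a test. Under each of the other settings and with each library left out, all 24 genes kept their sign. Without the 2 Die libraries all 24 stayed at an unadjusted p under 0.05. The 7S covariate left 17 of them at an unadjusted p under 0.05 and the transcript length index left 22.

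Gene lists for blood cell types and cell functions were then described by their counts and medians, beside those of all genes. Every count of list members at unadjusted p under 0.05 is to be read against the 5.53% of all genes that were higher and the 7.18% that were lower. Over all lists 139 genes were past that line. Of these, 57 remained past it without the 2 Die libraries, 9 with the length index and 4 with the 7S covariate, while 139, 138 and 127 kept their sign. The 17 classical monocyte markers had a median log2 change of 0.28, against -0.048 over all genes, and 14 of 17 were positive. At unadjusted p under 0.05, 4 were higher and 0 lower, where 5.53% of all genes were higher. Ccr2, the receptor by which monocytes leave the marrow, ran from 2379 to 9566 in Live with a median of 5906 and from 5547 to 15248 in Die with a median of 7899. The groups overlapped, the sham median was 14448, and the log2 change was 0.68 ± 0.26 (SE, limma, p = 0.0139, adjusted p = 0.330). Vcan, a matrix proteoglycan made by monocytes, had a median of 1550 in Live, 3250 in Die and 7175 in sham and a log2 change of 1.12. Clec4a3, a lectin receptor gene, had a log2 change of 0.64. The median of the list was 0.30 without the 2 Die libraries and 0.23 with the 7S covariate, with which 0 members remained at unadjusted p under 0.05.

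Genes of the patrolling subset were near 0. Over 13 markers of non-classical monocytes the median was -0.019 (0.096 with the 7S covariate and 0.10 without the 2 Die libraries), with 4 of 13 positive and 0 at unadjusted p under 0.05 in either direction. Cx3cr1, the fractalkine receptor, had a median of 1088 in sham, 377 in Live and 417 in Die, and a log2 change of 0.34 ± 0.23 (SE, limma, p = 0.150, adjusted p = 0.514) between Die and Live. Mpeg1, perforin-2 of phagocytes, had a log2 change of 0.29 and a sham median of 9497 against 4359 in Live and 5112 in Die. Whether the monocyte lists differed from each other was not tested.

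Mature neutrophil genes showed little displacement as a list. Of 15 tested mature neutrophil markers 8 were positive, the median was 0.032 and 1 was higher at unadjusted p under 0.05, Mmp8, a neutrophil collagenase (0.56). Cd177, a surface protein of neutrophils, ran from 152 to 908 in Live with a median of 334 and from 266 to 713 in Die with a median of 593, all below the sham median of 1158. Its log2 change was 0.56 ± 0.30 (SE, limma, p = 0.0735, adjusted p = 0.435). The list median was 0.22 without the 2 Die libraries and 0.19 with the 7S covariate. Most markers of immature granules were below the filter, with 5 of 14 tested. Their median was -0.21, with 1 higher (Cybb) and 1 lower (Ltf, -1.93) at unadjusted p under 0.05. It was 0.25 with the 7S covariate and 0.097 without the 2 Die libraries.

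Lymphocyte lists pointed mainly downward. Of 16 B cell markers 11 were negative, the median was -0.19, and 5 were lower at unadjusted p under 0.05, where 7.18% of all genes were lower. Cd79a, part of the B cell receptor, ran from 1158 to 2488 in Live with a median of 1879 and from 550 to 2428 in Die with a median of 942. In Cd79a 5 of 9 Die animals were below all Live animals, and the others lay within the Live range. Cd79a had a log2 change of -0.78 ± 0.27 (SE, limma, p = 0.00862, adjusted p = 0.330), and -0.13 with the 7S covariate. Blk, a B cell kinase (-0.86), Cxcr5, a follicular homing receptor (-0.46), the transcription factor gene Spib (-0.56) and Fcrla (-0.39) were others. The list median became -0.021 with the 7S covariate, with 0 members at unadjusted p under 0.05, and -0.14 without the 2 Die libraries, with 1. Of 14 plasma cell and immunoglobulin constant genes 11 were negative and 3 lower at unadjusted p under 0.05, Mzb1, Ighm and Iglc1, with a median of -0.43 that became -0.075 with the 7S covariate and -0.13 without the 2 Die libraries.

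T cell genes had no such downward displacement. The 22 markers had a median of 0.029, 14 were positive and 2 were higher at unadjusted p under 0.05, the transcription factor gene Lef1 (0.36) and the interleukin 7 receptor gene Il7r (0.41). With the 7S covariate the median was 0.16 with 20 positive and 1 higher. Without the 2 Die libraries it was 0.093 with 17 positive and 1 higher. Cytotoxic and natural killer genes had a median of -0.46 with 12 of 16 negative. Ccl5, a chemokine of these cells, had a median of 196 in Live and 108 in Die, with a log2 change of -1.04 ± 0.31 (SE, limma, p = 0.00305, adjusted p = 0.330). The list median was -0.032 with the 7S covariate and -0.24 without the 2 Die libraries.

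Platelet genes were mostly negative. Of 25 markers 21 were negative, the median was -0.21, and 6 were lower at unadjusted p under 0.05 against 0 higher, where 7.18% of all genes were lower. They were Pf4, Gp1bb, Gp9, Treml1, Tubb1 and Gng11. Gp9, a subunit of the von Willebrand factor receptor, ran from 2381 to 12419 in Live with a median of 5042 and from 895 to 5209 in Die with a median of 1865. Its groups overlapped in 4 Die animals, and its log2 change was -1.28 ± 0.37 (SE, limma, p = 0.00246, adjusted p = 0.330). Gp1bb, of the same receptor, had a median of 3331 in Live and 1898 in Die. Treml1, a receptor of platelet granules, had a log2 change of -0.75. The list median was -0.25 both without the 2 Die libraries and with the 7S covariate, with which 0 members remained at unadjusted p under 0.05. The single genes named here moved toward 0 with that covariate though the list median did not. Gp9 went to -0.21, Gp1bb to -0.37, Treml1 to -0.33, Tubb1 to -0.25 and Gng11 to -0.23. The summed value of the list ran from 191123 to 335686 in Live and from 148161 to 300026 in Die, so the ranges overlapped.

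Red cell genes had a median of -0.23 over 27 markers, 19 of them negative. The transcription factor genes Gata1 (-0.70) and Tal1 (-0.64) of erythroid and megakaryocyte precursors were the 2 at unadjusted p under 0.05. With the 7S covariate the list median was -0.28 with 2 positive and 0 at unadjusted p under 0.05, and Gata1 went to -0.37 and Tal1 to -0.33. Without the 2 Die libraries the list median was -0.27 with 4 positive and 1 lower. Markers of eosinophils, basophils and mast cells had a median of 0.077, dendritic cells -0.036, stem and progenitor cells -0.091 and endothelium -0.17, with at most 1 gene at unadjusted p under 0.05 in each list. In dendritic cells that gene was Ccr7 (-0.50), a lymph node homing receptor, and in stem and progenitor cells Ly6a (-0.44).

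Antigen presentation genes were mostly negative without a covariate. The 10 MHC class II genes had a median of -0.49, 10 of 10 were negative, and 7 were lower at unadjusted p under 0.05, where 7.18% of all genes were lower. H2-Eb1, a beta chain, ran from 3705 to 6572 in Live with a median of 4705 and from 1515 to 5738 in Die with a median of 3137. In H2-Eb1 5 of 9 Die animals were below all Live animals, and its log2 change was -0.71 ± 0.22 (SE, limma, p = 0.00452, adjusted p = 0.330). Cd74, the invariant chain, had a log2 change of -0.48 and H2-Aa, an alpha chain, -0.56. The median became -0.30 without the 2 Die libraries and -0.12 with the 7S covariate, with 2 and 0 members at unadjusted p under 0.05. MHC class I genes had a median of -0.36 with 3 of 14 lower, H2-K1, H2-D1 and H2-T23, and -0.017 with the 7S covariate and -0.21 without the 2 Die libraries, with 0 members lower in either.

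Interferon genes went both ways. The 21 type I genes had a median of -0.12 with 3 higher at unadjusted p under 0.05, among them the viral RNA sensor genes Ifih1 (0.79) and Ddx58 (0.43). That median was 0.078 without the 2 Die libraries and -0.18 with the 7S covariate. The 18 genes of the interferon gamma and guanylate-binding list had a median of 0.064, with Gbp5 (0.64) and Gbp7 (0.49) positive and Gbp6 (-0.79) negative. Toll-like receptor and inflammasome genes had a median of 0.084 with 3 of 22 higher, where 5.53% of all genes were: Tlr4, the receptor for bacterial endotoxin (0.56), Tlr1 (0.44) and the inflammasome protease gene Casp1 (0.48). That median was 0.23 with 2 higher without the 2 Die libraries, and 0.17 with 0 higher with the 7S covariate. For complement components and Fc receptors the median was -0.072 (0.029 without the 2 Die libraries) with 0 at unadjusted p under 0.05. Cytokine and chemokine genes had a median of -0.066, which was 0.052 without the 2 Die libraries and 0.12 with the 7S covariate, with 1 higher (Ccr2) and 2 lower (Ccl5 and Cxcr4, a marrow retention receptor, -0.36).

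Genes of protein synthesis and energy metabolism were mostly negative. Of 40 cytosolic ribosomal protein genes 34 were negative, the median was -0.51 and 20 were lower at unadjusted p under 0.05, where 7.18% of all genes were lower. The list is of short transcripts, with a median length of 798 bases, and 13.5% of genes in the shortest of 5 length groups were lower. With the length index, described below, as a covariate the list median was -0.011, with 0 lower. That index is made from the values of the shortest and longest tested genes, so short genes of this list enter it. The fit therefore cannot separate transcript length from the list's own change. Rplp2, an acidic stalk protein of the ribosome, ran from 7801 to 23179 in Live with a median of 11024 and from 1376 to 11244 in Die with a median of 8274. The groups overlapped, and its log2 change was -1.01 ± 0.33 (SE, limma, p = 0.00539, adjusted p = 0.330). Rps14 (-1.35), Rplp1 (-1.04) and Rps9 (-0.53) were others. The list median became -0.042 and the count 0 with the 7S covariate, and without the 2 Die libraries the median was -0.34 with 4 lower. Because many ribosomal protein genes have processed pseudogenes, reads can be split between copies, so single values are uncertain.

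Nuclear respiratory chain genes had a median of -0.25 with 6 lower and 1 higher of 28, and -0.051 with the 7S covariate and -0.15 without the 2 Die libraries. Ndufv1, a complex I subunit, had a median of 316 in Live and 199 in Die and a log2 change of -0.75 ± 0.23 (SE, limma, p = 0.00329, adjusted p = 0.330), which was -0.67 with the 7S covariate. Ndufb8 (-0.60), Cox5a (-0.46) and Cox4i1 (-0.47), of complexes I and IV, were others, at -0.26, -0.24 and -0.20 with that covariate. Mitochondrially encoded genes had a median of 0.14 with 11 of 15 positive, -0.33 with the 7S covariate and -0.064 without the 2 Die libraries. The antioxidant list had a median of -0.20 with 5 of 23 lower, among them Gpx4, which reduces lipid peroxides (-0.96), the peroxiredoxin gene Prdx6 (-0.50), the ferritin light chain gene Ftl1 (-1.01) and the thioredoxin gene Txn1 (-0.58). Its median was -0.13 with 0 lower with the 7S covariate, and -0.16 with 3 lower without the 2 Die libraries. With the 7S covariate Gpx4 went to -0.22, Prdx6 to -0.29, Ftl1 to -0.27 and Txn1 to -0.13. In the hypoxia and glycolysis list the median was -0.13 (-0.057 with the 7S covariate and -0.067 without the 2 Die libraries) with 3 higher and 3 lower. Hif1a, the hypoxia factor (0.45), Hk2, a hexokinase (0.97), and P4ha1 were positive, while the glycolytic enzyme genes Aldoa (-0.51), Tpi1 (-0.49) and Ldha (-0.38) were negative.

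Stress lists divided in direction. The 12 heat shock genes had a median of 0.25 with 3 higher, the chaperone genes Hsp90aa1, Hsph1 and Hspa1a, and 0.018 with the 7S covariate and 0.10 without the 2 Die libraries. Hsp90aa1 ran from 1713 to 4796 in Live with a median of 2681 and from 2751 to 18169 in Die with a median of 5210, with a log2 change of 0.92 ± 0.30 (SE, limma, p = 0.00634, adjusted p = 0.330) and 0.20 with the 7S covariate. Endoplasmic reticulum chaperone genes had a median of 0.13 (0.058 with the 7S covariate and 0.054 without the 2 Die libraries), with Hsp90b1 (0.55) and Pdia3 (0.32) positive and the stress factor genes Atf4 (-0.38) and Herpud1 (-0.35) negative. Immediate early genes had a median of -0.31 with 4 of 17 lower, Dusp2 (-1.60), Ier2 (-0.87), Junb (-0.80) and Dusp1 (-0.46), and a median of 0.058 with the 7S covariate, with 0 lower. Without the 2 Die libraries the immediate early median was -0.16 with 1 lower. The p53 targets had a median of -0.010, with Polk, a translesion polymerase, positive (0.68) and Trp53 (-0.84) and Bbc3 (-2.98) negative. Bbc3, a proapoptotic gene, was listed at 0 in 3 Die libraries and in 0 Live libraries, so its log2 change depends on the added 0.5. Cdkn1a, the p53 target that arrests the cell cycle, had a mean of 23.1 and was not tested, with a median of 14.1 in Live and 17.6 in Die.

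Genes of splicing and RNA binding were mostly positive and histone genes negative without a covariate. The 26 splicing and RNA binding genes had a median of 0.22, 21 were positive and 7 higher at unadjusted p under 0.05. Malat1, a nuclear long noncoding RNA, ran from 32230 to 97514 in Live with a median of 71072, and from 73898 to 239360 in Die with a median of 100346, with a log2 change of 0.74 ± 0.27 (SE, limma, p = 0.0122, adjusted p = 0.330). Son (0.44), Sf3b1 (0.30) and Hnrnpu (0.33) were others, and the list median was 0.18 without the 2 Die libraries and 0.10 with the 7S covariate. The 18 tested replication-dependent histone genes had a median of -0.90, 18 of 18 were negative and 9 were lower at unadjusted p under 0.05, where 7.18% of all genes were. Their median length was 734 bases. H2ac6 had a median of 1440 in Live and 787 in Die and a log2 change of -0.66, and H4c9 of -0.78. The histone median was -0.42 with 3 lower without the 2 Die libraries, and 0.031 with 0 lower with the 7S covariate. Cell cycle genes had a median of -0.12, which was -0.28 with the 7S covariate and -0.31 without the 2 Die libraries, with the replication helicase genes Mcm3 (-0.90) and Mcm6 (-0.47) and the kinase gene Cdk1 (-1.68) lower.

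The remaining lists had medians between -0.12 and 0.046. TGF-beta signalling and matrix genes had a median of 0.046 with 2 higher, the receptor gene Tgfbr1 (0.45) and Skil, a repressor of SMAD factors (0.36). Glucocorticoid response genes had a median of -0.12, with the receptor gene Nr3c1 (0.26) and Il7r higher and Dusp1 and Cxcr4 lower. Apoptosis regulators had a median of -0.094, actin and migration genes -0.061, lysosomal genes -0.079 and clock genes 0.0072. In the actin list 4 were lower, Actg1 (-0.46), Cotl1 (-0.50), Cfl1 (-0.33) and Tmsb4x (-0.64), and in the clock list 2 were higher, Clock (0.42) and Cry1 (0.74). Carmil1, a regulator of actin capping, had a log2 change of -0.50 (limma, adjusted p = 0.559). Without the 2 Die libraries the medians of the glucocorticoid (0.0075) and actin (0.029) lists turned positive, and with the 7S covariate that of the TGF-beta list (-0.051) turned negative and that of the lysosome list (0.0020) positive. The clock median was 0.27 without the 2 Die libraries and 0.17 with the 7S covariate.

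Several genes named in the lists moved by over 1.5 times without Die replicates 2 and 14. Among lymphocyte genes, Blk went to -0.35, Mzb1 to -0.83, Ighm to -0.23 and Iglc1 to -0.28. The class I genes H2-K1 (-0.24), H2-D1 (-0.23) and H2-T23 (-0.27), the guanylate-binding gene Gbp6 (-0.39) and the erythroid factor gene Gata1 (-0.45) were nearer 0 as well. Of the stress genes, Bbc3 went to -1.59, Ier2 to -0.36, Junb to -0.50, Dusp1 to -0.28, Atf4 to -0.23, Txn1 to -0.25 and Hsp90aa1 to 0.60. Hif1a went to 0.29, Ldha to -0.16, Cotl1 to -0.32, Mcm6 to -0.29, Hnrnpu to 0.21, Rps14 to -0.82, Rplp2 to -0.64 and Rpph1 to -1.18. Cry1 moved away from 0, to 1.14. Of these genes, Mzb1, Hsp90aa1, Rplp2 and Cry1 were at unadjusted p under 0.05 in that fit.

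**Figure D2:**
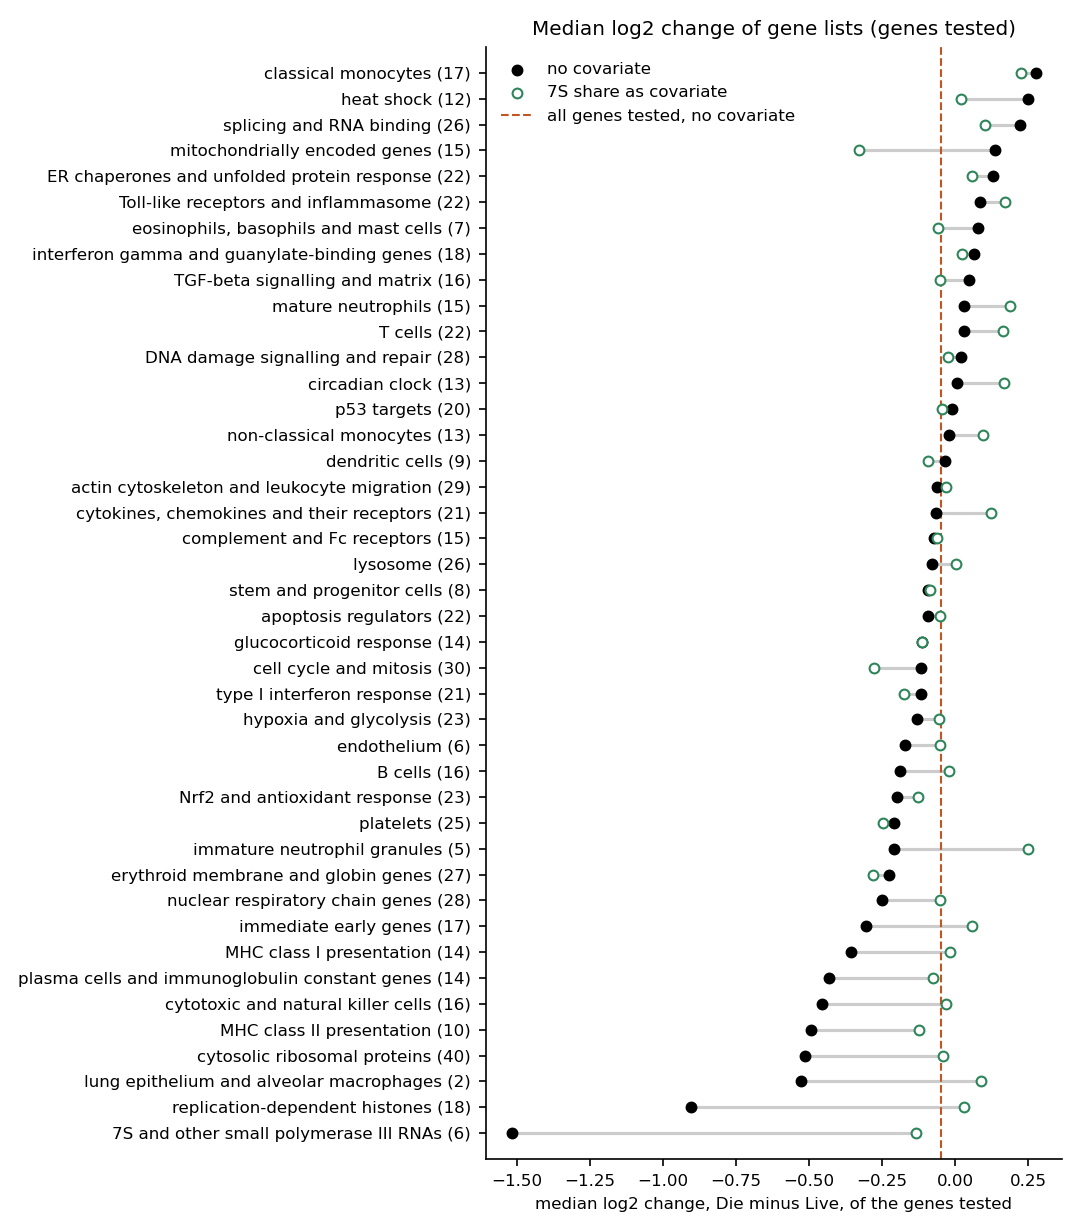
Median log2 change (Die minus Live) of the tested genes of 42 gene lists, with the number tested in brackets, without a covariate (filled) and with the 7S share of the library as a covariate (open). The dashed line is the median of all genes, -0.048. The lists at the lower end moved toward 0 with the covariate. The lowest list includes Rn7s1 and Rn7s2, from which the covariate is made, so its move follows in part from how the covariate was made. Platelets (-0.21 and -0.25), red cell genes (-0.23 and -0.28) and classical monocytes (0.28 and 0.23) kept similar medians. In these 3 lists 0 members were at unadjusted p under 0.05 with the covariate.

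The measure of library make-up with the smallest p was the share of the 7S RNA genes Rn7s1 and Rn7s2, the RNA of the signal recognition particle that guides secretory proteins to the endoplasmic reticulum. Their values were equal in all 29 libraries, so reads could not be divided between them.

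The 7S share ran from 11.6% to 40.1% in Live with a median of 27.6%, and from 3.02% to 32.1% in Die with a median of 8.72%. The mean was 27.4% ± 9.34 (SD, n = 10) in Live, 14.2% ± 10.8 (SD, n = 9) in Die and 17.9% ± 6.57 (SD, n = 10) in sham. Of the Die animals, replicates 2, 3, 4, 10 and 14 lay below all Live animals and the others within the Live range. The difference was -13.3 percentage points (exact permutation test, two-sided, p = 0.0126, adjusted p = 0.0758 over 6 measures), which missed the threshold. As a gene, Rn7s1 had a log2 change of -1.62 ± 0.94 (SE, limma, p = 0.0985). It was -10.4 points without Die replicates 2 and 14 (exact permutation test, adjusted p = 0.308). It passed without Live replicate 5 (-15.0 points, adjusted p = 0.0336), Die replicate 15 (-15.5 points, adjusted p = 0.0228) or Die replicate 16 (-15.0 points, adjusted p = 0.0400), by exact permutation tests. The mitochondrial, hemoglobin and immunoglobulin shares, the number of genes above 0 and the number of tested genes at 0 had adjusted p of at least 0.598 by the same test. A low share was not limited to irradiated animals, since sham replicate 1 had 2.73% and 873 tested genes at 0. Because the mean share was lower in Die than in Live, a fit with the share as a covariate cannot fully separate the share from the outcome label. The part of the 7S share in the gene values was not tested beyond the covariate values given here.

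Other small RNAs of RNA polymerase III had negative log2 changes as well. Their list was made together with the 7S genes, so its 6 tested members include Rn7s1 and Rn7s2. The list median was -1.52, into which the equal values of these 7S genes both entered. All 6 were negative, and 2 were lower at unadjusted p under 0.05, Rpph1 and Rmrp. Rpph1, the RNA of ribonuclease P that trims transfer RNA, ran from 17665 to 152787 in Live with a median of 69269 and from 2700 to 136382 in Die with a median of 8776. The same 5 Die animals that had the low 7S shares lay below all Live animals in Rpph1, and the other 4 lay within the Live range. Its log2 change was -1.78 ± 0.62 (SE, limma, p = 0.00930, adjusted p = 0.330), and 0.10 with the 7S covariate. Rmrp, the RNA of a related processing enzyme, had a log2 change of -1.21, and 0.26 with the covariate. Small nuclear RNA genes had a median of -1.22 with 11 of 21 lower, and small nucleolar RNA genes -0.84 with 11 of 22 lower, where 7.18% of all genes were lower at unadjusted p under 0.05. With the 7S covariate these medians were 0.045 and 0.024, with 0 lower in both. Without the 2 Die libraries they were -0.69 with 0 lower and -0.73 with 5 lower.

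**Figure D3:**
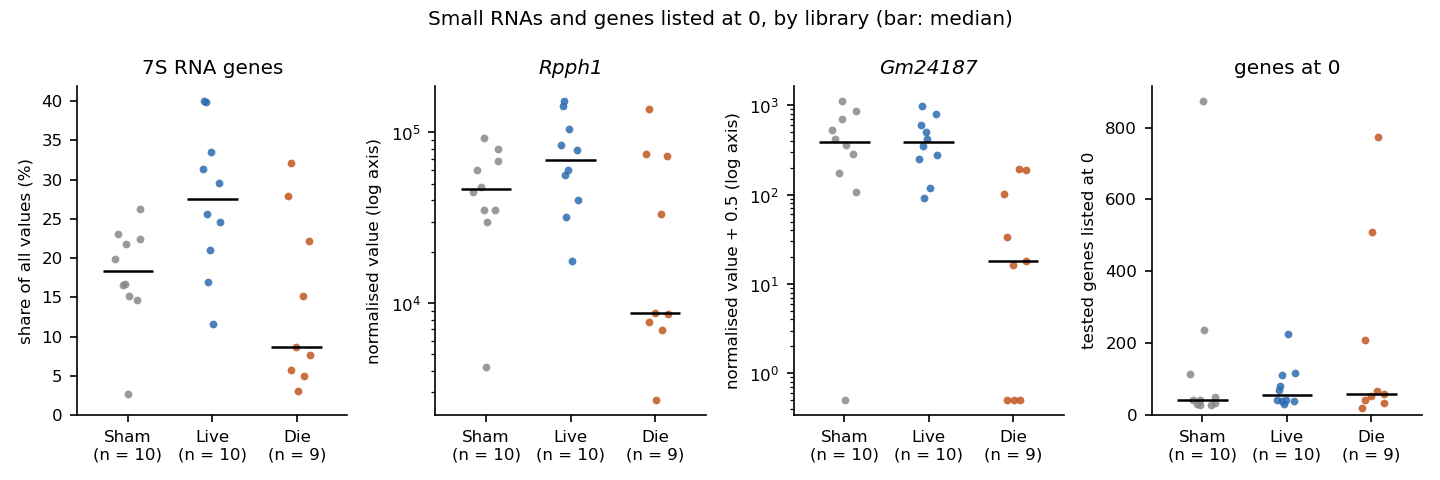
From left to right, the 7S share of all values (percent), the normalised value of Rpph1 (log axis), the normalised value of Gm24187 plus 0.5 (log axis) and the number of tested genes listed at 0, for each library, with group medians as bars. The Die medians of the 7S share (8.72%) and Rpph1 (8776) lie below the Live medians (27.6% and 69269), and Die replicates 2 and 14 have 773 and 508 genes at 0.

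The most negative log2 change of all 11608 genes belonged to Gm24187, a 57-base gene model annotated as a microRNA (chromosome 13, 9834469 to 9834525, minus strand). That label is the annotation's, and whether its reads came from a microRNA or from another RNA with this sequence was not tested. Gm24187 was singled out after its values were seen. In Die it was listed at 0 in replicates 2, 3 and 14 and reached at most 191, with a median of 17.6, while in Live it ran from 91.9 to 979 with a median of 386, the same as the sham median of 386. The groups overlapped in 3 Die animals. Gm24187 had a log2 change of -4.88 ± 1.09 (SE, limma, p = 0.000189, adjusted p = 0.330), which depends on the added 0.5, and it was -2.53 with the 7S covariate. A further 3 models of 57 bases, Gm23935, Gm24245 and Gm24270, share 1 sequence and hence 1 value per library, with a median of 8996 in Live and 1079 in Die and a log2 change of -2.86. They differ from Gm24187 by 1 base, written G11A from Gm24245 to Gm24187 with positions counted from 1 at the 5′ end, so reads of the 4 models can be confused. The capital letter marks that base.
Gm24187: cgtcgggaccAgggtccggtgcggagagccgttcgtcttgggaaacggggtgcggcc
Gm24245: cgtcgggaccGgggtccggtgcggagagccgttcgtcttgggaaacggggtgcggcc

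Transcript length moved with the comparison. Of the tested genes, 11574 had a length in the annotation, and they were divided into 5 equal groups by length. The median log2 change was -0.17 in the shortest group (median 716 bases), -0.11, -0.070 and 0.0087 in the next ones and 0.071 in the longest (median 4896 bases). In the shortest group 13.5% of genes were lower and 2.68% higher at unadjusted p under 0.05, and in the longest 2.59% were lower and 9.81% higher. Without the 2 Die libraries the medians ran from -0.11 to 0.090, and with the 7S covariate from -0.049 to 0.038. The same difference appeared among the named genes, whose median length was 3391 bases in the 12 higher and 1491 bases in the 12 lower ones. A length index per library, the median centred log2 value of the shortest group minus that of the longest, averaged 0.16 in Live, -0.083 in Die and -0.028 in sham. With it as a covariate 131 genes were higher and 146 lower at unadjusted p under 0.05. The index is made from the values of these same genes, so this fit cannot separate length from their changes. Its part in the gene values was not tested further.

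**Figure D4:**
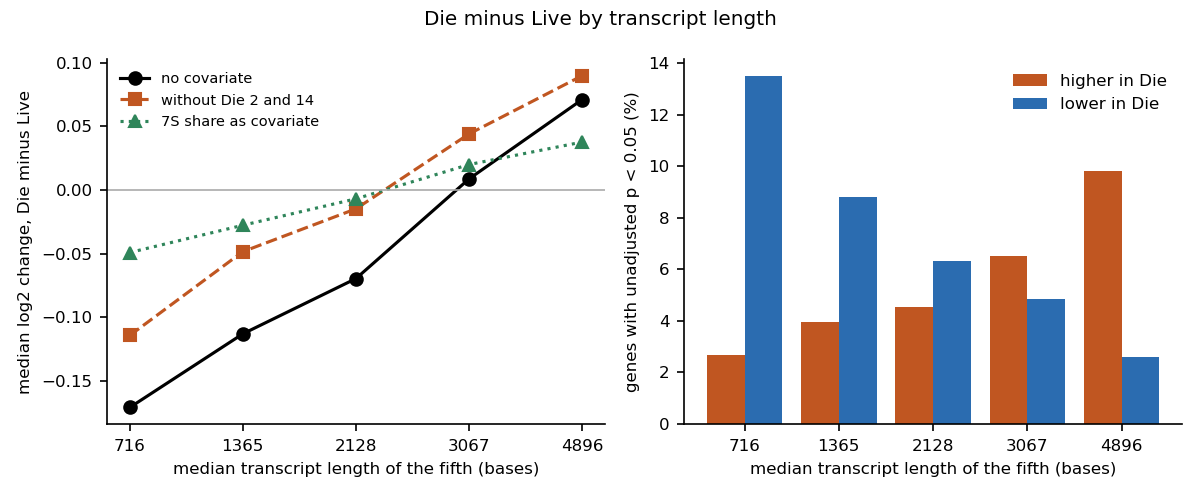
Tested genes in 5 equal groups by transcript length, named by the median length in bases. On the left, the median log2 change (Die minus Live) without a covariate, without Die replicates 2 and 14, and with the 7S covariate; on the right, the percentage of genes at unadjusted p under 0.05, which goes from 13.5% lower in the shortest to 9.81% higher in the longest group.

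The smallest p of all genes tested was that of Gm47626, a processed pseudogene on chromosome 10 singled out after its values were seen. It ran from 232 to 544 in Live with a median of 352, and from 450 to 1580 in Die with a median of 662, with a sham median of 378. In it 7 of 9 Die animals were above all Live animals, and its log2 change was 1.01 ± 0.22 (SE, limma, p = 0.000141, adjusted p = 0.330). Its transcript aligned over 3234 bases at 97.9% identity with Gm42927, a processed pseudogene of 3841 bases on chromosome 3. Gm42927 ran from 419 to 1668 in Live and from 740 to 7696 in Die, with a log2 change of 1.29. A stretch of 120 bases of both, on the minus strand at chr3:120739412-120739531 and chr10:51989429-51989548, shows how near these copies are, with the 3 differing bases in capitals.
Gm42927: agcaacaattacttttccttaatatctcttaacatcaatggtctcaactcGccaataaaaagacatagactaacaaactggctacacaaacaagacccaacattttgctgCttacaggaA
Gm47626: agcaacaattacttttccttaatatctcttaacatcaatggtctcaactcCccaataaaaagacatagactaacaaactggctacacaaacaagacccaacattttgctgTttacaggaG

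Genes with a transcript that aligned to Gm42927 over at least 1000 bases at 85% identity or more were then collected, a set made after the values were seen. It held 118 annotated genes, of which 84 were tested. Of these, 80 had a positive log2 change, with a median of 0.81 and a range from -0.73 to 2.29, against -0.048 over all genes. At unadjusted p under 0.05, 43 were higher and 0 lower, where 5.53% of all genes were higher. The set was not one of pseudogenes alone. On the same strand as Gm42927 it held 50 genes annotated as processed pseudogenes (median 0.92) and 12 as protein coding (median 0.83). What kind of sequence they share was not examined. The 154 processed pseudogenes tested outside the set had a median of 0.13, with 87 positive. Copies this alike share reads, so the 84 values are not independent and the value of any single copy is uncertain. The set also held Olfr635 and Fgd4 of the named genes, each through a transcript that aligned to it. Fgd4 aligned on the same strand at 93.4% identity and Olfr635 on the opposite strand at 87.7%, and of the 84 genes 69 aligned on the same strand (median 0.83) and 15 on the opposite one (median 0.80). Whether their values include reads of the shared sequence was not tested. Without the 2 Die libraries the median was 0.63 with 33 higher, and with the 7S covariate 0.46 with 79 positive and 10 higher. With the length index as a covariate it was 0.34 with 73 positive and 7 higher.

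**Figure D5:**
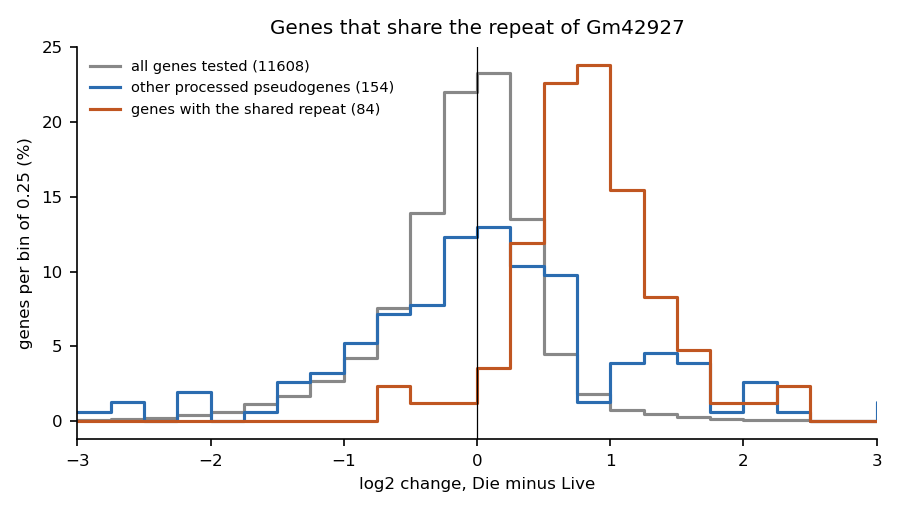
Distribution of the log2 change (Die minus Live) in bins of 0.25, as a percentage of each set, for all 11608 tested genes, 154 processed pseudogenes outside the set and the 84 genes that share the sequence of Gm42927. The axis is cut at -3 and 3, and the medians are -0.048, 0.13 and 0.81.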

How the data were processed

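Whole-blood RNA was sequenced from 29 male mice with 1 library per animal, and the 19 irradiated libraries were compared here. Per the submitters' processing notes the tools were bcl2fastq 2.19, kallisto 0.44.0, sleuth and DESeq2 on GRCm38. The sources used here do not say what each was used for. The authors deposited a normalised signal per gene symbol. Between 1.87% and 27.7% of values per library were whole multiples of an apparent single read within 0.01, so read counts were not recovered, depth is unknown and no count model was used, so limma replaced the count test foreseen for raw counts.

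Testing covered genes whose mean over the 19 libraries was 50 or more, on log2(value + 0.5) with limma 3.58.1 (trend, R 4.3.3), two-sided, with no covariate and Benjamini-Hochberg adjustment over all genes tested at a threshold of 0.05. Log2 changes are on that scale, and SE is limma's. A value listed at 0 becomes -1 there. The log2 change of a gene with such values depends on the added 0.5 and can be larger than that of the group means. P-values weigh the difference between group means against the spread between libraries. With 1 library per animal, differences between animals and between library preparations cannot be told apart. Library measures were compared by exact permutation tests (numpy 2.4.6), adjusted over 6 measures. Named genes are the 12 of smallest p per direction, leaving out gene models and multicopy RNAs. Genes whose groups did not overlap, up to 4 members of smallest p per list (at unadjusted p under 0.05) and a panel were added. The panel held Cx3cr1, Cd177, Mpeg1, Cybb, Ccr2, Carmil1, Rn7s1, Rn7s2, Cdkn1a and Pf4. Other list members, small RNAs and the repeat were chosen after their values were seen. The rule, the lists (842 of 843 symbols found, 25 through an older symbol), the panel and the groups compared were chosen with earlier results of these data known. Coordinates, lengths (median over a gene's transcripts) and sequences are from GENCODE M21 on GRCm38, with alignments by BLAST 2.17.0. Alternatives covered the pseudocount, filter, scaling, fit, covariates and each library left out. Some results are withheld and not reported here.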

Additional observations from a re-analysis of the deposited data

Results flagged for a closer look

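Values of the libraries were examined for 1 animal far from the rest of its group, in 264 groups of values (a gene or library measure in Live or in Die). In 14 of them the highest or lowest animal stood apart by Dixon's criterion, where chance flags about 1 in 20 groups. Of these, 4 belonged to Die replicate 14, 3 to Live replicate 18, 2 each to Live replicate 7 and Die replicate 2, and 1 each to Live replicates 5 and 6 and Die replicate 4.

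In Die replicate 14 the highest log2 values of the group were those of Olfr635 (9.83, next 8.80), Gbp5 (9.46), Tlr1 (10.98) and Malat1 (17.87). In Die replicate 2 the lowest were those of Blk (5.75, next 8.57) and Mzb1 (-1, which stands for a value of 0). In Die replicate 4 Tal1 was the lowest at 8.40. In Live replicate 18 Tmem143 was the highest at 9.39 and Gbp7 (8.51) and Hsph1 (7.36) were the lowest. In Live replicate 7 P4ha1 was the lowest at 7.47 and Hnrnpu the highest at 12.77. In Live replicate 6 the histone gene H3c2 was the lowest at 3.19, and Live replicate 5 had the most tested genes at 0 of its group, 225 against 118 in the next. The causes were not tested.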

How the results depend on the processing

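With limma, 0 genes passed under every setting tried and with each library left out, and 0 at an adjusted p under 0.1 in the reported fit. The smallest adjusted p was 0.0601, with quantile normalisation. Genes higher at unadjusted p under 0.05 numbered 642 in the reported fit, 1055 with a minimum mean of 1, 1170 with no filter, 416 with array weights, 116 with the 7S share and 131 with the length index as a covariate, and 501 to 754 with 1 library left out. Genes lower numbered 834, 450 with array weights, 485 with totals without 7S, hemoglobin and mitochondrial transcripts, 69 with the 7S share, 146 with the length index, 462 without Die replicates 2 and 14, and 594 to 1015 with 1 library left out. The length index was added after the data were seen. With the 7S covariate the log2 change turned positive for Rps14 (0.0071), Ier2 (0.033), Junb (0.10), H4c9 (0.052), Rpph1 (0.10), Rmrp (0.26) and Rn7sk (0.019); the cause was not tested. With 1 library left out the difference in share was -15.5 to -11.8 points for 7S, -0.39 to 1.79 for mitochondrial, -0.92 to -0.39 for hemoglobin and -0.0039 to 0.013 for immunoglobulin genes, -169.6 to 993 for genes above 0 and 44.1 to 138 for tested genes at 0. Without Die replicates 2 and 14 it was -0.058 points for mitochondrial transcripts and -10.7 for tested genes at 0. No paired analysis was possible because Die and Live animals share no replicate number in the labels. Depth is unknown, so low genes were limited only by the filter.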
